A study of Mus musculus with 3 samples.

Results

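The genes described here are 10 that cells use to meet a shortage of amino acids and to make serine and one-carbon units: Atf4, Asns, Ddit3, Trib3, Chac1, Psat1, Phgdh, Shmt2, Mthfd2 and Slc7a5. They were found by symbol and are 10 of the 32245 gene symbols in the count tables, in 11 of 32285 rows. Ddit3 has 2 rows, and the overlapping second model (ENSMUSG00000116429) held 0 UMIs, so every Ddit3 value is that of ENSMUSG00000025408. A UMI is a molecular tag that counts 1 captured mRNA molecule once.

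The data are single-cell RNA counts from mouse bone marrow, made with the 10x 3' v3 droplet chemistry in 1 library for each of 3 genotypes. RIT1 is a small GTPase of the RAS family, and LZTR1 is an adaptor of the CUL3 ubiquitin ligase that targets RIT1 and other RAS proteins for degradation. The mice were 8 weeks old when they received 3 doses of pIpC at 12 mg/kg, and marrow was taken 4 weeks later. Live cells negative for CD3, CD11b, Gr1, B220 and Ter119 were sorted, which leaves mainly stem and progenitor cells.

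The control was Rit1M90I/+ without Mx1-Cre, so the allele was present without the recombinase; the title of that sample reads wild type. The Lztr1 knockout was Lztr1fl/fl with Mx1-Cre, and Rit1-M90I was Rit1M90I/+ with Mx1-Cre. All 3 received pIpC, an interferon inducer that switches Mx1-Cre on. Mx1-Cre acts in blood cells and in other interferon-responsive tissues. Cre itself is present in both mutants and missing from the control, and its effect cannot be told apart from the effect of the alleles. With 1 library per genotype no difference between genotypes has a replicate check, no test was possible, and each interval below is a 95% interval for counting error only.

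After filtering, 7273 control, 2338 Lztr1 knockout and 9367 Rit1-M90I cells remained, with 62419416, 27617480 and 79770991 UMIs. The median cell held 6861, 9922.5 and 6590 UMIs in the same order, so the Lztr1 knockout library had the fewest and the deepest cells. Levels are in CPM, counts per 1000000 UMIs of the summed cells, and runs of 3 values are in the order control, Lztr1 knockout, Rit1-M90I. Lztr1 mRNA over all kept cells was at 17.3, 6.34 and 15.2 CPM, lowest in the library labelled knockout. Which exons were deleted is not stated in the labels, so 3' tags outside the deleted part could remain. Kept barcodes shared by 2 libraries numbered 2 to 9 in each pair.

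Cells were gated into 18 populations by panels of 8 marker genes each, none of them a gene described here. The 8 populations with at least 50 cells in every library are described. Erythroid progenitors, gated on Car1, Klf1, Gata1, Epor, Ermap, Aqp1, Cldn13 and Rhd, numbered 1028, 441 and 957 cells. All 4 markers kept aside to check that gate (Tspan33, Sphk1, Add2 and Gfi1b) were at least 2-fold higher there than in the other cells of every library. The check was weaker elsewhere. For the stem and multipotent gate it held for 1 of 4 markers (Gcnt2), with Procr, Pdzk1ip1 and Ly6a not 2-fold higher, and for neutrophil and lymphoid progenitors it held for 2 of 4.

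When an amino acid or heme runs short, or unfolded protein builds up, kinases phosphorylate the translation factor eIF2alpha. General translation then slows while the transcription factor ATF4 is made from its stored mRNA, and ATF4 switches on genes of amino acid supply. ATF4 output is therefore set largely by translation, and Atf4 mRNA is not a measure of the protein. Erythroid precursors use a heme-regulated kinase of this set, HRI, the product of Eif2ak1, to match globin production to heme.

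The 10 genes fall into 3 roles. Atf4, Ddit3, Trib3 and Chac1 belong to the stress arm. ATF4 is the activator, DDIT3 (CHOP) is the transcription factor of prolonged stress, TRIB3 is a pseudokinase that feeds back on ATF4, and CHAC1 degrades glutathione. Asns encodes asparagine synthetase, and Slc7a5 the importer of leucine and other large neutral amino acids. PHGDH and PSAT1 catalyse the first steps of serine synthesis from a glycolytic intermediate, while SHMT2 and MTHFD2 pass serine carbon to folate in mitochondria.

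Promoter sequence is shown for the genes with a match to the ATF4 motif described below that lay upstream of the start site, Asns and Chac1. In erythroid cells Asns was high and Chac1 had no UMI, which played no part in the choice. RefSeq promoter windows of GRCm38.p6, from 250 bases before to 50 bases after a start site, matched 9 of the 10 genes. The CARE motif, the C/EBP-ATF site that ATF4 binds, was searched as TGATGNAAN on both strands and found in 3 of the 9 genes, Asns, Chac1 and Trib3. It was present in 4.5% of 27025 genes with such windows, and in 3.95% of the 32851 windows. In Asns it began at -23 from the RefSeq start site, and in Chac1 at -194. In Trib3 it began at 13, after the start site, and that sequence is not shown. The gene coordinates given below start Asns further upstream, so by them its matched letters lie inside the gene. Capitals mark the matched letters, and each sequence is written 5′ to 3′ on the gene's strand.
Asns, chr6:7693210-7693272, minus strand: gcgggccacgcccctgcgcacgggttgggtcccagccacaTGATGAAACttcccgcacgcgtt
Chac1, chr2:119351008-119351096, plus strand: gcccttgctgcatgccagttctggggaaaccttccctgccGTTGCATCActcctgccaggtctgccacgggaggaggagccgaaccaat
The Chac1 match lies on the opposite strand, so its capitals read as the reverse complement. The GATA motif AGATAA, searched the same way, was found in 1 of the 9 genes, Ddit3, against 12.7% of all genes and 11.2% of windows. These matches are letters in a window, not measured binding.

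Asns (ENSMUSG00000029752, chromosome 6, 7675169 to 7693254, minus strand) was the gene of the set with the sharpest pattern, high in erythroid progenitors and low in the other 7 populations. Its level in erythroid progenitors was 136, 132 and 138 CPM. Neutrophil progenitors came next with 14.5, 13.02 and 15.3 CPM. The groups did not overlap, since the highest value in any other described population was below the lowest erythroid one.

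In the stem and multipotent population Asns was at 7.35, 14.2 and 6.99 CPM, in the monocyte lineage at 2.63, 3.16 and 2.66 CPM, and in basophils and mast cells at 3.14, 3.89 and 3.85 CPM. Lymphoid progenitors held 4.34, 0.842 and 1.72 CPM, on 13, 1 and 5 UMIs. Below erythroid and neutrophil progenitors the order of populations rested on few UMIs and neighbours overlapped between libraries. Of the smaller gates, megakaryocytes had 28.5, 35.0 and 31.7 CPM and plasma cells 56.9, 33.0 and 29.7 CPM, so raised Asns was not confined to erythroid cells.

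Against the mean of the other 7 populations, the erythroid level of Asns was 8.62 to 9.72 times higher over the 3 libraries, on log2 of CPM plus a pseudocount of 10 (differences of 3.28, 3.11 and 3.26). This scale understates the fold of a gene that is low in the other cells. Asns was the 1 gene of the 7 measured members past 1.5-fold higher in all 3 libraries, where 14.2% of 6246 measured genes were, and 0.304% of them differed by as much as Asns. None of the 7 was past 1.5-fold lower, where 20.2% of genes were. The count of 1 of 7 is near the background. Measured means a mean of at least 20 CPM over the libraries, with each population weighted equally, and Slc7a5, Trib3 and Chac1 were below it. Asns met that mean only through its erythroid level, as no other described population passed 15.3 CPM. Its call and rank therefore lean on the same values as the filter and are not separate support.

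The difference was also seen in the share of cells with an Asns UMI at equal depth. With every cell thinned to 5000 UMIs, this share was 38.5%, 36.6% and 39.6% of erythroid progenitors, from 939, 414 and 845 cells deep enough. In the monocyte lineage the same share was 1.01%, 1.43% and 1.33%. Unthinned shares were 60.2%, 62.6% and 59.7% of erythroid progenitors and 2.18%, 3.36% and 2.37% of monocyte lineage cells, whose median depths in the control were 16677.5 and 8606 UMIs. Neutrophil progenitors, next by level, had thinned shares of 6.44%, 5.82% and 6.92%, also far below the erythroid ones. Whether free RNA in the droplets or low expression gave the small shares was not tested.

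**Figure D1:**
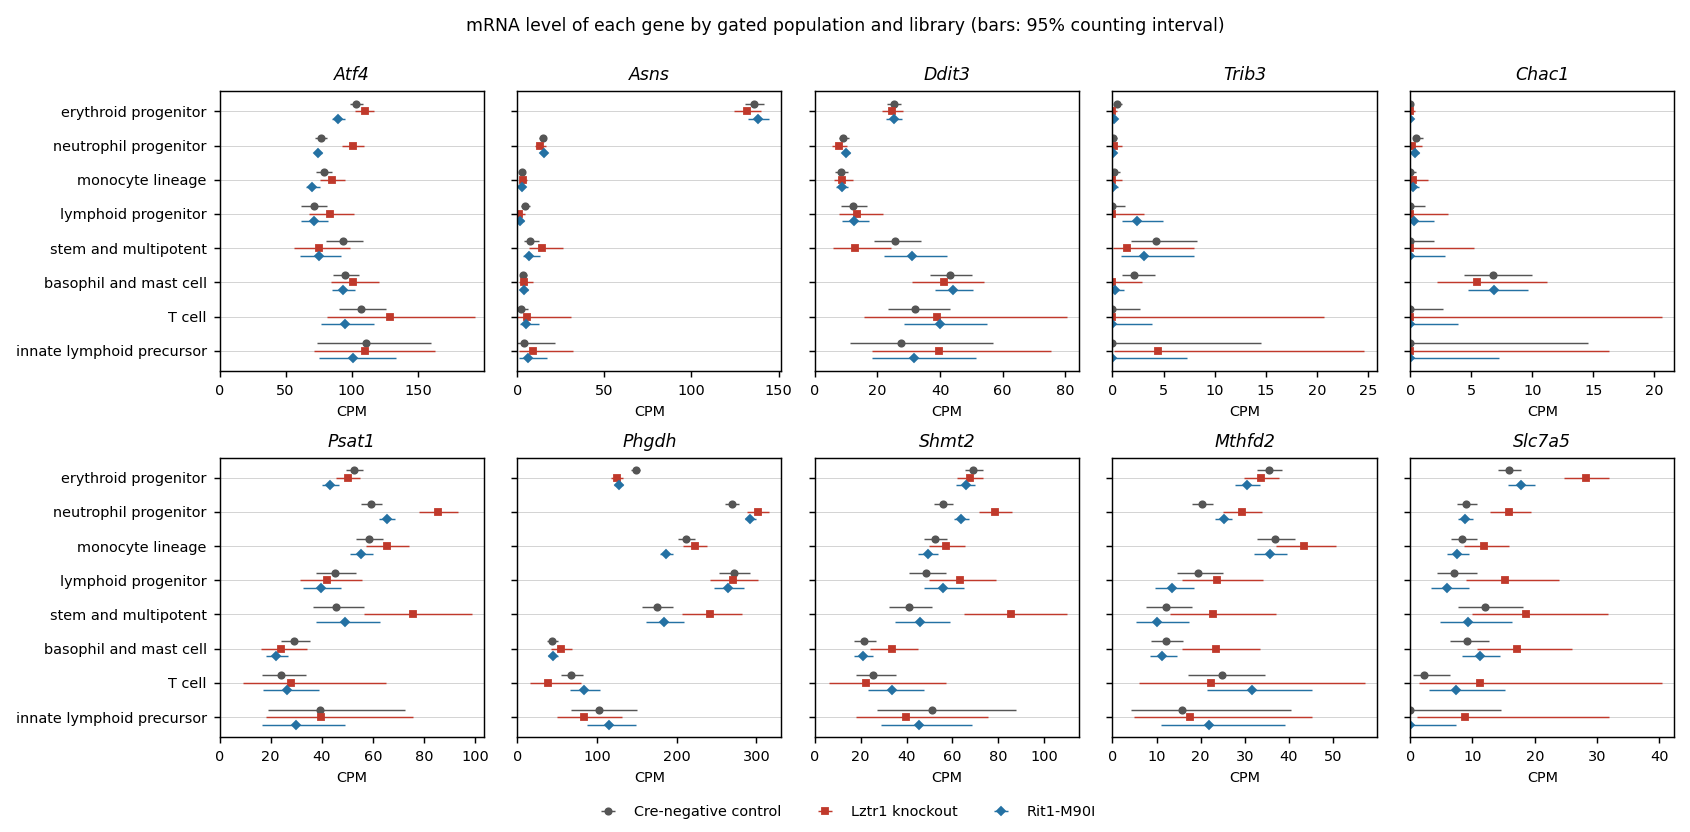
Level of each of the 10 genes in CPM (horizontal axis, a separate linear scale for each gene) in the 8 described populations (vertical axis), with 1 point per library and bars for the 95% counting interval. The 3 Asns points of erythroid progenitors, at 132 to 138 CPM, stand apart from all other populations, while Atf4 stays between 70.2 and 129 CPM everywhere.

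Within the erythroid gate Asns was higher in later cells. The cells were split into low, middle and high bins by the share of their UMIs from 12 erythroblast markers, such as the globins, Alas2 and Slc4a1. Asns was at 85.6 CPM in the low, 133 CPM in the middle and 188 CPM in the high bin of the control. The Lztr1 knockout had 96.1, 135 and 152 CPM and Rit1-M90I 88.0, 125 and 180 CPM. The rise from low to high was present in all 3 libraries.

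In the high bin the knockout level of Asns was 0.81 times the control (0.73 to 0.90), while over all erythroid progenitors the ratio was 0.97 (0.90 to 1.04). Deeper cells also fell into the later bins, with median UMIs of 11927, 18535.5 and 19874 in the control. Their part in the rise was not tested.

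Split instead by the share of UMIs from 16 S phase genes, the low bin of erythroid progenitors held 59.7, 92.6 and 85.6 CPM of Asns. The ratios over control were 1.55 (1.27 to 1.90) and 1.44 (1.21 to 1.71). In the middle bin the levels were 152, 144 and 138 CPM and in the high bin 163, 142 and 176 CPM. A control below both mutants was thus seen in the low bin and not in the others.

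Mthfd2 (ENSMUSG00000005667, chromosome 6, 83305691 to 83325908, minus strand) rose with Asns over the bins of late erythroid markers. It went from 24.0 to 36.4 and 45.9 CPM in the control, from 17.8 to 31.1 and 46.7 CPM in the Lztr1 knockout and from 16.8 to 25.4 and 43.3 CPM in Rit1-M90I. Phgdh (ENSMUSG00000053398, chromosome 3, 98313170 to 98339990, minus strand) was lower in the latest cells. Its levels in the low, middle and high bins were 169, 167 and 108 CPM in the control, 164, 138 and 87.6 CPM in the Lztr1 knockout, and 129, 152 and 105 CPM in Rit1-M90I. The high bin was the lowest in each library for Phgdh and the highest in each for Mthfd2.

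**Figure D2:**
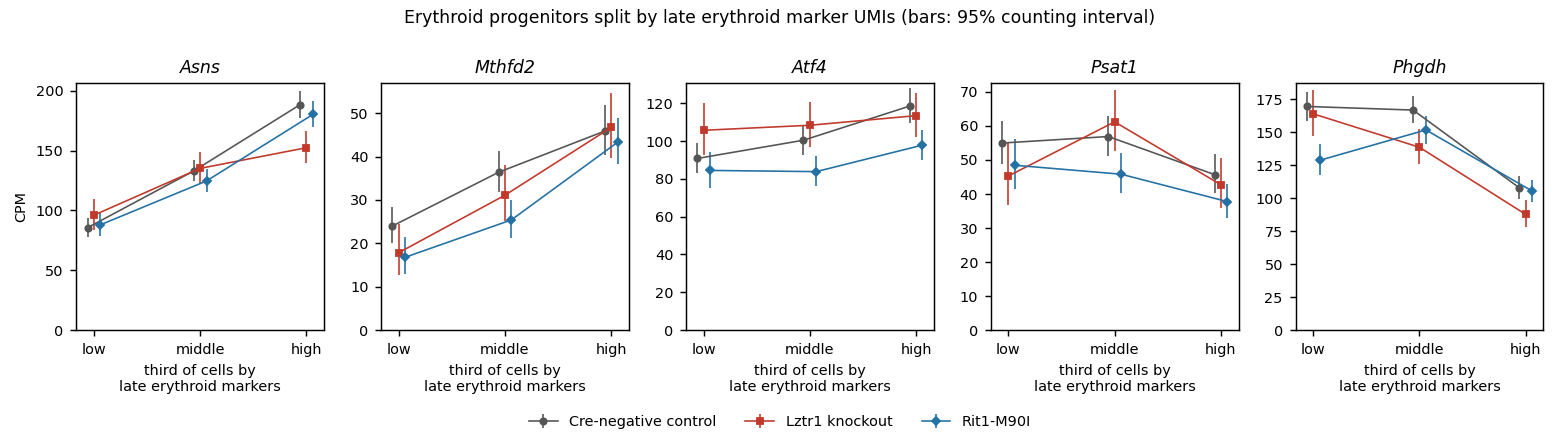
Levels in CPM (vertical axis, starting at 0) of Asns, Mthfd2, Atf4, Psat1 and Phgdh in erythroid progenitors split into 3 bins by late erythroid marker UMIs (horizontal axis), 1 line per library, bars for the 95% counting interval. Asns and Mthfd2 climb from the low to the high bin in every library and Phgdh is lowest in the high bin.

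Atf4 (ENSMUSG00000042406, chromosome 15, 80255184 to 80257541, plus strand) mRNA was present at a like level in all populations. It was at 103, 110 and 89.7 CPM in erythroid progenitors, at 76.5, 101 and 74.3 CPM in neutrophil progenitors and at 95.2, 101 and 93.5 CPM in basophils and mast cells. Over the 8 populations and 3 libraries it ran from 70.2 to 129 CPM, with overlapping values in most populations. Asns, a target of ATF4, varied far more between populations than Atf4 mRNA did.

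Ddit3 (chromosome 10, 127290774 to 127296288, plus strand) was highest in basophils and mast cells, with 43.2, 41.3 and 44.1 CPM, against 25.2, 24.7 and 25.1 CPM in erythroid progenitors. Neutrophil progenitors had 9.11, 7.61 and 9.89 CPM and the monocyte lineage 8.39, 8.69 and 8.56 CPM, and neither overlapped the other populations just named. Ddit3 was the 1 of 7 measured members past 1.5-fold higher in basophils and mast cells (background 13.8% of genes), a count near the background. It was the 1 past 1.5-fold lower in neutrophil progenitors (background 13.1%), again near the background. With Asns it was 1 of 2 that were lower in the monocyte lineage (background 6.08%). The Asns call there was taken against a mean that included its high erythroid level, and in part restates it. Basophils and mast cells were shallow, with a median of 2598.5 UMIs in the control.

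Chac1 (ENSMUSG00000027313, chromosome 2, 119351229 to 119354381, plus strand) had 0 UMIs in erythroid progenitors of every library. For scale, 3 UMIs there would stand for 0.172, 0.353 and 0.199 CPM. Basophils and mast cells held 6.80, 5.45 and 6.88 CPM on 26, 7 and 34 UMIs, and plasma cells 6.64, 11.7 and 9.10 CPM on 9, 6 and 19 UMIs. Of the 2 genes whose CARE letters are shown above, Asns was thus high and Chac1 not detected in erythroid progenitors, while plasma cells held both. Trib3 (ENSMUSG00000032715, chromosome 2, 152337422 to 152344032, minus strand) had 72 UMIs in all deposited barcodes and gave no level that could be compared firmly. Erythroid progenitors held 8, 0 and 2 of them.

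Phgdh was highest in neutrophil progenitors, with 269, 302 and 292 CPM, and in lymphoid progenitors, with 272, 270 and 265 CPM. Basophils and mast cells were lowest with 43.7, 54.5 and 44.7 CPM, and erythroid progenitors lay between at 149, 126 and 127 CPM. Phgdh was the 1 of 7 measured members past 1.5-fold higher in lymphoid progenitors (background 5.12%) and in neutrophil progenitors (background 6.13%). In T cells it was the 1 that was lower (background 12.8%), a count near the background. In basophils and mast cells Phgdh, Shmt2 and Asns were the 3 that were lower (background 9.97%). For Asns the mean of the other populations included the erythroid level of 132 to 138 CPM, so its low call in part restates the erythroid peak.

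Psat1 (ENSMUSG00000024640, chromosome 19, 15904678 to 15947337, minus strand) had a smaller range and an order that was alike only in part. It was at 59.3, 85.2 and 65.4 CPM in neutrophil progenitors, 52.7, 50.04 and 43.2 CPM in erythroid progenitors and 29.3, 24.1 and 22.3 CPM in basophils and mast cells. Lymphoid progenitors, among the highest for Phgdh, held 39.6 to 45.1 CPM of Psat1, with a mean below that of erythroid progenitors. Shmt2 (ENSMUSG00000025403, chromosome 10, 127517123 to 127522444, minus strand) was at 69.1, 67.5 and 65.7 CPM in erythroid progenitors, 56.0, 78.6 and 63.9 CPM in neutrophil progenitors and 21.4, 33.5 and 20.8 CPM in basophils and mast cells. Mthfd2 was highest in the monocyte lineage, with 36.8, 43.4 and 35.7 CPM, and in erythroid progenitors, with 35.6, 33.7 and 30.6 CPM. It was the 1 of 7 past 1.5-fold higher in the monocyte lineage (background 8.12%).

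The remaining comparisons of 1 population with the others held none of the 7 members past 1.5-fold. These were stem and multipotent cells (backgrounds 4.21% higher and 3.04% lower), innate lymphoid precursors (8.52% and 3.04%), lymphoid progenitors for lower levels (3.68%) and T cells for higher levels (8.84%).

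Across the 8 populations, on log2(CPM + 10) averaged over the 3 libraries, Psat1, Phgdh and Shmt2 varied together and Mthfd2 followed them less. Pearson's r was 0.89 between Psat1 and Phgdh, 0.89 between Psat1 and Shmt2 and 0.87 between Phgdh and Shmt2. For Mthfd2 it was 0.36 with Psat1, 0.20 with Phgdh and 0.33 with Shmt2. For Asns it was 0.27, 0.07 and 0.51 with the same 3 genes, and 0.26 with Atf4. Ddit3 ran the other way, with r = -0.92 to Phgdh. The 3 genes most like Asns were Pla2g12a (0.98), Minpp1 (0.98) and Glrx5 (0.98), of 7798 candidates. Those most like Ddit3 were Ankra2, Susd6 and March2 (0.99, 0.97 and 0.96). For Phgdh they were Psmg4, Galk1 and Cdca7 (0.97, 0.97 and 0.96). The points share libraries and differ in depth, and 8 points give high values easily, so these are descriptions.

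Related gene lists showed which other amino acid and translation genes were high in erythroid progenitors of all 3 libraries. Of all 6246 measured genes, 14.2% were past 1.5-fold higher there and 20.2% past 1.5-fold lower. Of the eIF2alpha kinases, subunits and exchange factors, 6 of 11 measured genes were past 1.5-fold higher (Eif2s1, Eif2s2, Eif2s3x, Eif2b1, Eif2b3 and Eif2b4). Eif2ak1, the HRI gene, was at 37.9, 43.0 and 47.4 CPM against a mean of 32.4, 30.6 and 33.2 CPM in the other populations. Of the cytosolic aminoacyl tRNA synthetases, which charge tRNA with amino acids, 8 of 17 were higher, led by Hars at 126, 125 and 115 CPM against 38.4, 39.8 and 38.3 CPM. The 8 were Aars, Eprs, Farsb, Gars, Hars, Iars, Kars and Rars, while Lars, Nars, Sars, Tars and Wars were among those not past the line.

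Of other folate and one-carbon enzymes 7 of 11 were higher (background 14.2%). Mthfd1, the cytosolic enzyme of the pathway, was at 221, 215 and 203 CPM against 31.9, 30.8 and 30.6 CPM. Fpgs, which adds the glutamate tail that keeps folate in cells, was at 69.5, 65.2 and 58.1 CPM against 17.0, 18.1 and 14.5 CPM. Median log2 differences were 0.74 for the eIF2alpha list, 0.67 for the synthetases and 0.80 for the folate list, against -0.02 over all measured genes. S phase genes were also higher in erythroid progenitors, 11 of 16 with a median of 0.75, as were G2 and mitosis genes, 11 of 15 with a median of 0.88. Their part in the other lists' levels was not tested.

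The measured stress and feedback genes of the ATF4 response were not among the genes that were high. Of 15 listed beside the 10, 4 were measured, of which none was higher in erythroid progenitors and 2 were lower. Cebpb was at 13.8, 16.5 and 14.7 CPM against 82.5, 71.5 and 85.1 CPM. Herpud1 was at 31.0, 29.3 and 28.0 CPM against 69.8, 55.6 and 64.0 CPM. Of 14 genes of the other branches of endoplasmic reticulum stress, 0 were higher and 5 lower (Hsp90b1, Xbp1, Dnajc3, Pdia4 and Edem1), with a median of -0.55. Genes induced by cell handling were lower as well, 5 of 6 measured with a median of -1.25 (Jun, Junb, Jund, Ier2 and Zfp36). The part of handling in the stress gene levels was not tested. Among 8 other amino acid enzymes, 3 were higher (Aldh18a1, Got2 and Bcat2). Of 5 amino acid transporters 1 was lower, Slc38a1, which is near the background. The backgrounds for these lists were 14.2% of genes higher and 20.2% lower.

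Between genotypes, the related lists in erythroid progenitors held 0 of 11 eIF2alpha, 0 of 12 folate and 0 of 19 synthetase genes past 1.5-fold in either mutant over control. Of all 5472 measured genes 0.219% were in the knockout and 0.329% in Rit1-M90I, so these counts are near the background. The highest of the eIF2alpha list was Eif2ak1 in both, at 1.13 (0.996 to 1.29) in the knockout and an interval of 1.13 to 1.39 in Rit1-M90I, and the lowest was Eif2b1 at 0.85 and 0.83. Of the folate list the lowest was Slc19a1, the reduced folate carrier, at 0.82 (0.73 to 0.93) and 0.81 (0.73 to 0.89), and of the synthetases it was Yars at 0.90 and 0.78.

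The 10 genes were likewise close to level there. Of the 8 members with a mean of at least 20 CPM there, 0 were past 1.5-fold in the Lztr1 knockout over control, where 0.219% of 5472 genes were in either direction. It was also 0 in Rit1-M90I over control (background 0.329%) and 0 in Lztr1 knockout over Rit1-M90I (background 0.274%). The median log2 ratio of the 8 was -0.04 and -0.12 for the mutants over control, against -0.01 and -0.02 over all genes. So few genes passed that fold that a count of 0 is near the background, and smaller shifts are given gene by gene.

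Slc7a5 (ENSMUSG00000040010, chromosome 8, 121881150 to 121907694, minus strand) differed most. Erythroid progenitors held 15.8, 28.1 and 17.7 CPM, on 276, 239 and 267 UMIs. The knockout stood above both other libraries, with a ratio over control of 1.78 (1.49 to 2.12) and over Rit1-M90I of 1.59 (1.33 to 1.90), while Rit1-M90I over control was 1.12 (0.94 to 1.33). On the pseudocount scale the first was 0.56, just under the 1.5-fold line, and 0.128% of genes were as high. With a pseudocount of 1 CPM it was 0.79 and past the line.

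The Slc7a5 difference was seen beyond erythroid cells. Neutrophil progenitors had 8.97, 15.9 and 8.81 CPM, lymphoid progenitors 7.02, 15.2 and 5.86 CPM, and basophils and mast cells 9.15, 17.1 and 11.1 CPM. The knockout over control ratios were 1.77 (1.34 to 2.33), 2.16 (1.08 to 4.26) and 1.87 (1.05 to 3.28). In the monocyte lineage the levels were 8.39, 11.8 and 7.57 CPM with a ratio of 1.41 (0.95 to 2.09), and in stem and multipotent cells 12.1, 18.5 and 9.33 CPM with a ratio of 1.53 (0.71 to 3.16). The last pair of intervals held 1. T cells and innate lymphoid precursors had 2 knockout UMIs each, against 3 and 0 in the control.

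Slc7a5 was higher in the knockout than in the control in 8 of 8 populations, as were 1.88% of 9562 genes of at least 5 CPM, with a median log2 ratio of 0.53 that 0.0837% of genes reached. With a top gate score 2 times the second the count was 7 of 8, T cells being lower, and it was 8 under the other 8 alternatives. None of the other 7 members at that level was. Over all kept cells the levels were 10.7, 18.9 and 10.0 CPM, a ratio of 1.77 (1.58 to 1.99). The order of populations by mean level put erythroid progenitors first at 20.6 ± 6.63 CPM (SD over the 3 libraries) and stem and multipotent cells next at 13.3 ± 4.72 CPM. These SDs overlap but include the difference between genotypes, and within each of the 3 libraries the erythroid level was the higher.

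**Figure D3:**
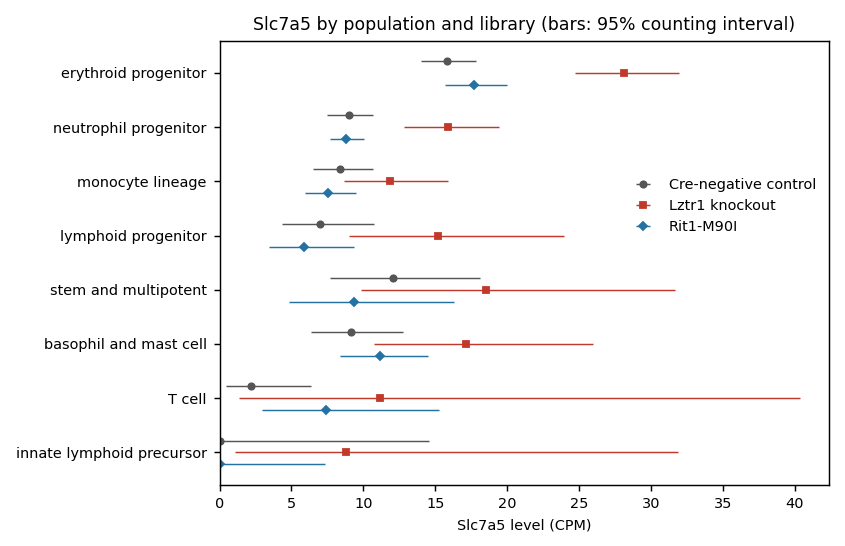
Slc7a5 level in CPM (horizontal axis) in the 8 described populations (vertical axis), with 1 point per library and bars for the 95% counting interval. The Lztr1 knockout point lies to the right of the control in every population, clearest in erythroid (28.1 against 15.8 CPM) and neutrophil progenitors (15.9 against 8.97 CPM).

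The knockout over control ratio of Slc7a5 was also taken within bins of cells. Within the low, middle and high bins of late erythroid markers it was 1.89, 1.71 and 1.75. Within the bins of S phase genes it was 1.68, 1.87 and 1.74, all 6 intervals lying above 1. The thinned share of erythroid progenitors with an Slc7a5 UMI was 7.14%, 13.2% and 8.02%, against 22.1%, 40.1% and 22.8% unthinned. In the monocyte lineage the thinned share was 4.32%, 5.10% and 3.37%. Erythroblast panel genes were higher in both mutants' erythroid gates, at 237, 352 and 400 CPM summed over 8 genes, and their part in the Slc7a5 difference was not tested.

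Other amino acid transporters showed smaller differences. Slc3a2, the heavy chain that carries SLC7A5 to the membrane, was at 73.1, 69.2 and 67.6 CPM in erythroid progenitors, a knockout over control ratio of 0.95 (0.86 to 1.05), and was lower in the knockout in 6 of 8 populations. Slc7a1, which imports arginine and lysine, was higher in the knockout than in the control in 6 of 8 populations with a median log2 of 0.17, and higher than in Rit1-M90I in 8 of 8 with a median of 0.20. Its level in erythroid progenitors was 35.1, 35.2 and 29.3 CPM. Over control, Slc38a2, a glutamine carrier, was higher in the knockout in 7 of 8 with a median of 0.10.

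Phgdh was lower in erythroid progenitors of both mutants. Its levels of 149, 126 and 127 CPM gave ratios over control of 0.84 (0.79 to 0.91) and 0.86 (0.81 to 0.91). In the low, middle and high late erythroid bins the knockout ratio was 0.97 (0.85 to 1.09), 0.83 (0.74 to 0.93) and 0.81 (0.70 to 0.94). For Rit1-M90I the low bin was at 0.76 (0.68 to 0.85), the middle bin at 0.91 (0.83 to 0.998) and the high bin at 0.98 (0.87 to 1.09). Both ratios share the control library, so they are not independent of each other.

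In Rit1-M90I erythroid progenitors Psat1 was at 0.82 times the control (0.74 to 0.91), Atf4 at 0.87 (0.81 to 0.93) and Mthfd2 at 0.86 (0.76 to 0.97), all small. Neutrophil panel markers in the same gate summed to 77.6, 83.8 and 221 CPM and monocyte panel markers to 14.5, 12.2 and 33.8 CPM over 8 genes each, highest in Rit1-M90I, and their part in these ratios was not tested. The knockout intervals of Atf4 (0.98 to 1.15), Asns, Ddit3, Psat1, Shmt2 and Mthfd2 held 1, with bounds no further than 0.82 to 1.16. Those bounds cover counting error only, so with 1 library per genotype they cannot exclude a difference between genotypes.

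**Figure D4:**
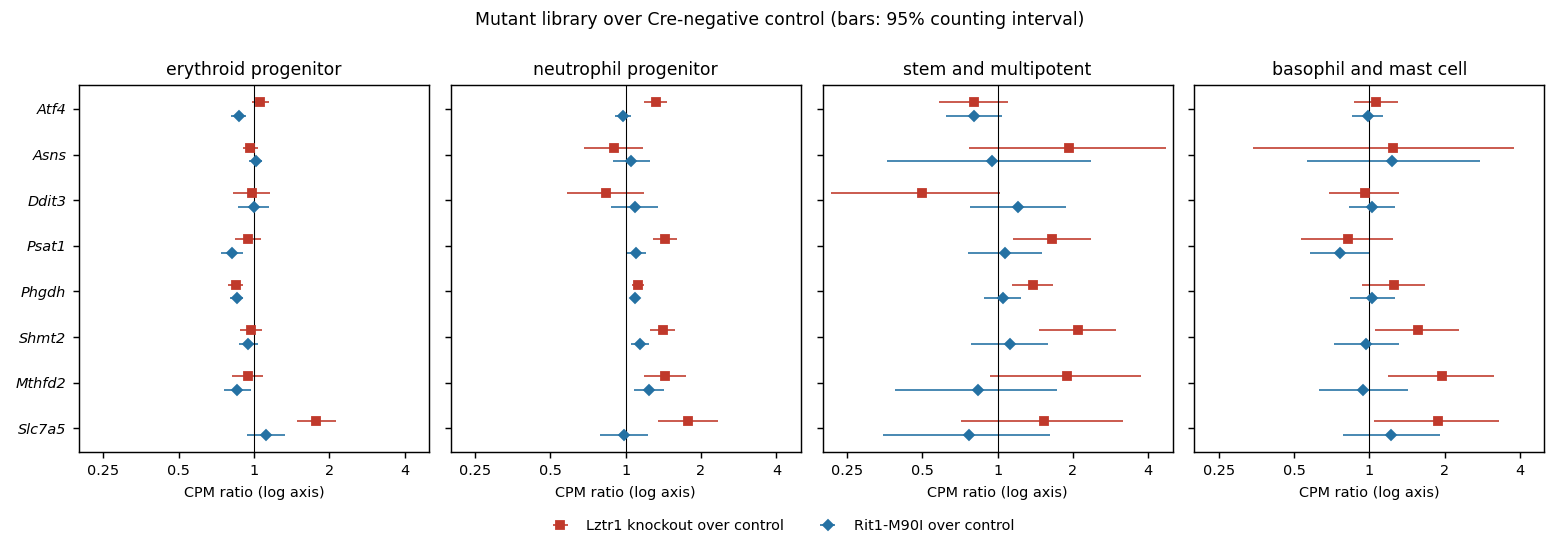
Plain CPM ratios of each mutant library over control (horizontal log axis) for the 8 members other than Trib3 and Chac1 (vertical axis) in 4 populations, with 95% counting intervals and a line at 1. In erythroid progenitors only the knockout point of Slc7a5, at 1.78, lies far from 1, while in neutrophil and stem cells the knockout points of Psat1 and Shmt2 also lie to its right.

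In neutrophil progenitors the knockout held more mRNA of several of the genes. Psat1 was at 85.2 against 59.3 CPM, a ratio of 1.44 (1.28 to 1.61), Shmt2 at 1.40 (1.249 to 1.58), Mthfd2 at 1.44 (1.18 to 1.74) and Atf4 at 1.32 (1.19 to 1.45), while Phgdh was at 1.12 (1.06 to 1.19). None of the 5 measured members was past 1.5-fold, where 0.397% of genes were either way. The median log2 ratio of the 5 was 0.37 against 0.05 over all genes. Rit1-M90I over control had 0 of 5 past it too (background 0.415%), with ratios of 1.14 for Shmt2 and 1.24 for Mthfd2, and an interval of 1.01 to 1.20 for Psat1.

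Proliferation and handling genes moved in the same neutrophil gate. G2 and mitosis genes had a median log2 ratio of 0.27 in the knockout over control and S phase genes 0.15, with summed levels of 1384 against 1075 CPM and 2024 against 1800 CPM. Genes induced by cell handling, such as Jun, Jund and Hspa1b, were lower, at 229 against 333 CPM summed over 12 genes, with 3 of 5 measured past 1.5-fold. Within bins of S phase genes the Psat1 ratio was 1.46, 1.59 and 1.249 from low to high. It was for Shmt2 1.53, 1.44 and 1.18 and for Mthfd2 1.70, 1.60 and 1.05, so the high bin gave the smallest values. The part of handling in these values was not tested.

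In the stem and multipotent population, which rests on 316, 79 and 234 cells, Shmt2 was at 41.0, 85.5 and 45.9 CPM. Its knockout over control ratio was 2.09 (1.46 to 2.96), on 60 and 78 UMIs. Psat1 was at 45.7, 75.5 and 49.0 CPM, 1.65 (1.15 to 2.35), and Phgdh at 175, 242 and 184 CPM, 1.38 (1.14 to 1.67). Ddit3 went lower, at 25.7, 12.8 and 31.1 CPM, with 9 knockout UMIs and a ratio of 0.50 (0.22 to 1.02). The knockout stood above both other libraries for the 3 serine pathway genes and below both for Ddit3.

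Shmt2 and Psat1 were the 2 of 5 measured members past 1.5-fold higher there (background 2.71%), and Ddit3 the 1 lower (background 3.0%). Rit1-M90I over control had 0 of 5 past it there (background 1.29%). In the knockout over Rit1-M90I, Shmt2 was higher and Ddit3 lower, 2 of 5 (background 7.59%). The Psat1 value fell to 0.12 on the log2 scale when cells were gated after thinning to 2000 UMIs, from 0.62, while Shmt2 was at 0.70. S phase genes were higher in the same knockout cells, 6 of 15 past 1.5-fold with a median of 0.53, and handling genes summed to 440 against 748 CPM. Their part in the values was not tested.

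Basophils and mast cells of the knockout held more Mthfd2, at 23.4 against 12.0 CPM, with 11.3 CPM in Rit1-M90I, a ratio over control of 1.94 (1.18 to 3.14) on 30 and 46 UMIs. Shmt2 there was at 1.56 (1.05 to 2.29) on 43 and 82 UMIs. Of the 5 members measured in that gate 0 were past 1.5-fold (background 0.773%), since Mthfd2 was below 20 CPM on average. Lymphoid progenitors and the monocyte lineage likewise had 0 of 4 and 0 of 5 (backgrounds 1.11% and 0.328%). In Rit1-M90I over control the counts were 0 in basophils and mast cells (background 0.387%), lymphoid progenitors (0.845%) and the monocyte lineage (0.414%). T cells of the knockout numbered 55, and 1 of 6 members was past 1.5-fold over control there, where 19.2% of genes were. It was Phgdh, lower on 7 knockout UMIs, and its direction reversed with a top gate score 2 times the second (0.20 in place of -0.66 on the log2 scale). Innate lymphoid precursors, with 56 knockout cells, gave no firmer values.

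The mutant libraries, which share Mx1-Cre, were also compared with each other. Atf4, Psat1 and Slc7a5 were higher in the Lztr1 knockout than in Rit1-M90I in 8 of 8 populations, 3 of the 8 members at 5 CPM or more, where 1.96% of genes were. In erythroid progenitors the ratio was 1.22 (1.12 to 1.33) for Atf4 and 1.16 (1.02 to 1.31) for Psat1. The counts depended on the processing. Over the 9 alternatives Atf4 was higher in 6 to 8 populations, Psat1 in 5 to 8 and Slc7a5 in 7 or 8. The median log2 ratio over the populations was 0.22 for Atf4, 0.19 for Psat1 and 0.46 for Slc7a5. Of these, Slc7a5 was the one higher than the control as well in 8 of 8, with the T cell exception given above.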

How the data were processed

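The deposited values are raw UMI counts, not normalized, and the software was Cell Ranger 6.1.1 per the file headers. The submitters' processing notes list mm10 as build and Seurat 4.1.0 as a tool. Gene coordinates come from an mm10 annotation and promoters from RefSeq. How strand was counted and which annotation release was used is not given in these sources.

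Barcodes with at least 1000 UMIs, 500 genes and at most 10% mitochondrial UMIs were kept. Scrublet in scanpy 1.11.5 removed 250, 84 and 450 doublets. A cell was gated to the panel with the highest mean marker level if at least 3 of 8 markers had a UMI and the score was at least 25% above the next; 16.5% to 17.9% of cells stayed ungated. The marker Clc and the listed gene Mars1 were not matched.

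UMIs were summed per population and library as CPM, with exact Poisson intervals. Plain ratios have exact conditional intervals, and log2 ratios add 10 CPM. Calls are 1.5-fold among genes with a mean of at least 20 CPM. UMIs mark 3' ends, so levels are compared within a gene. By rule the text names all 10 genes, the 3 genes most similar to a member, and genes from the 2 highest and 2 lowest of a list in erythroid progenitors between libraries. Genes named as high or low against other populations were chosen after their values were seen. The members and lists were chosen with earlier results of these data known. The fold calls were tried on counts simulated for the erythroid knockout over control comparison: of 5468 genes, 200 were changed by 2-fold, and 99.0% of those raised, 93.0% of those lowered and 0 others were called. Changes smaller than 2-fold were not simulated, so these shares do not apply to the smaller shifts given above.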

Additional observations from a re-analysis of the deposited data

Results flagged for a closer look

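Several ratios had 95% counting intervals on opposite sides of 1 in different populations of the same comparison, and the difference between populations was not tested. Phgdh in the Lztr1 knockout over control was at 1.38 in stem and multipotent cells and 1.12 in neutrophil progenitors, but at 0.844 in erythroid progenitors. The stem and multipotent value depended on the processing, as given above. In Rit1-M90I over control Phgdh was at 1.09 in neutrophil progenitors, 0.881 in the monocyte lineage and 0.855 in erythroid progenitors. Psat1 in Rit1-M90I over control was at 1.1 in neutrophil progenitors, 0.819 in erythroid progenitors and 0.76 in basophils and mast cells. Mthfd2 in the same comparison was at 1.24 in neutrophil and 0.86 in erythroid progenitors.

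Trib3 in Rit1-M90I over control was at 2.4 in lymphoid progenitors, on 7 UMIs against 0, with the control taken at the level of 3 UMIs. It was at 0.0967 in basophils and mast cells, on 1 UMI against 8. With 1 library per genotype, these ratios compare libraries.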

How the results depend on the processing

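No paired analysis was possible because each genotype has 1 library, and for the same reason no replicate could be left out. Each ratio of a gene was recomputed under 9 alternatives. These were a stricter cell filter, all deposited barcodes, doublets kept, at least 4 panel markers, gating on cells thinned to 2000 UMIs, a top score 2 times the second, pseudocounts of 1 and 50 CPM, and TMM scaling. The bins of late erythroid markers, and the comparison of erythroid progenitors with other populations, were added after seeing the data. Over these 9 alternatives, of 2160 values 2070 stayed within counting error of the main one, 89 moved further and 1 reversed, Phgdh in T cells of the Lztr1 knockout over control, at 0.20 in place of -0.66 with a top score 2 times the second, where the cause was not tested. The count of members past 1.5-fold in erythroid progenitors went from 0 to 1 with a pseudocount of 1 CPM, both for the Lztr1 knockout over control and over Rit1-M90I (Slc7a5 each time), and was 0 under the other alternatives. The count higher in erythroid progenitors than in other populations went from 1 to 2 with a top score 2 times the second (Shmt2 added, cause not tested) and to 2 with no filter on low genes (Slc7a5, then counted). The Asns difference was 3.22 on the log2 scale, 3.32 when gated after thinning, 3.34 with the stricter score, and 4.50 and 1.73 with pseudocounts of 1 and 50 CPM. Depth limits Trib3, Chac1 and the T cell and innate lymphoid values.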
